A study of Homo sapiens with 4 samples.

Results

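Genes of the lysosome were followed in A2780 cells, an established human ovarian cancer line, after treatment with wogonin, a plant flavone. The members are 45 genes picked by name, with earlier results of these data known but no measured value in the selection rule. They are the subunits of the proton pump, the hydrolases, the membrane and transport proteins and the transcription factors TFEB, TFE3 and MITF. Of the 45 names, 44 matched a row of the deposited tables, out of 57773 genes in all. The name CLN3 matched no row, and its 2 suffixed rows are given at the end. The study's question was whether wogonin slows ovarian tumour cells by way of DNA demethylation. All 4 libraries are labelled WT and ovarian adenocarcinoma: 2 from cells given DMSO, the vehicle (numbered 1 and 2), and 2 from cells given wogonin at 10 ug/mL for 48 h (numbered 3 and 4). No treatment time is stated for DMSO, and the labels do not tell whether the 2 libraries of a group are separate cultures. The p-values therefore rest on a spread between libraries that may be technical.

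The lysosome is an acidic compartment that breaks down proteins, lipids and glycans. Its proton pump, the V-ATPase, has a peripheral V1 sector that splits ATP and a membrane-embedded V0 sector that carries protons, and the hydrolases need the acid it makes. TFEB, TFE3 and MITF are related basic helix-loop-helix factors that bind E-box sequences in many lysosomal promoters, and nutrient signalling through mTORC1 holds them in the cytosol by phosphorylation. Transcript levels measure neither their location nor lysosomal acidity or enzyme activity.

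Each library held 11005921 to 11839562 exon reads, and 3 reads, the floor used here, were worth 0.253 to 0.273 CPM (reads per 1000000, scaled between libraries). Wogonin 3 had the highest share of intron reads among genes with exons (7.96%, against 5.26 to 5.61% in the others). Wogonin 4 had the highest share of mitochondrial reads (3.03%, against 1.45 to 1.67%). The defining markers of ovarian epithelial cancer were nearly absent. The 8 listed (PAX8, WT1, EPCAM, MUC16, KRT7, KRT8, KRT18 and CDH1) summed to 4 to 18 exon reads per library, and MUC16 was at 0 in all. Fibroblast markers summed to 192 and 176 reads in DMSO and 104 and 116 in wogonin, mostly COL1A1. Leukocyte, endothelial and erythroid markers summed to at most 5 reads each. The endothelial sum leaves out PECAM1, which matched no row by name. The part of these markers in the results was not tested. In bulk RNA, fewer cells of a type and less RNA per cell cannot be told apart.

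Most lysosomal members were higher after wogonin. Of the 44 members, all of which passed the filter on low counts, 35 rose, 4 fell and 5 did not pass (edgeR quasi-likelihood test, p adjusted by Benjamini-Hochberg over 13449 genes, threshold 0.05). Among all genes tested 32.3% were called higher and 31.5% lower, against 79.5% and 9.09% of the members. Since the members were chosen with earlier results of these data known, this contrast is a description, not independent evidence. The members' median log2 fold change was 0.55, a 1.47-fold level, while the median of all genes was -0.00066. A rise of 1 log2 unit or more was seen in 9 members, and in 6.31% of all genes. Both wogonin libraries lay above both DMSO libraries in 37 members (84.1%), against 41.0% of all genes. With 2 libraries a group, the smallest two-sided p of an exact permutation test is 0.333, and none was run on single genes. Without each library in turn the counts were 33 to 34 higher and 2 to 4 lower.

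**Figure D1:**
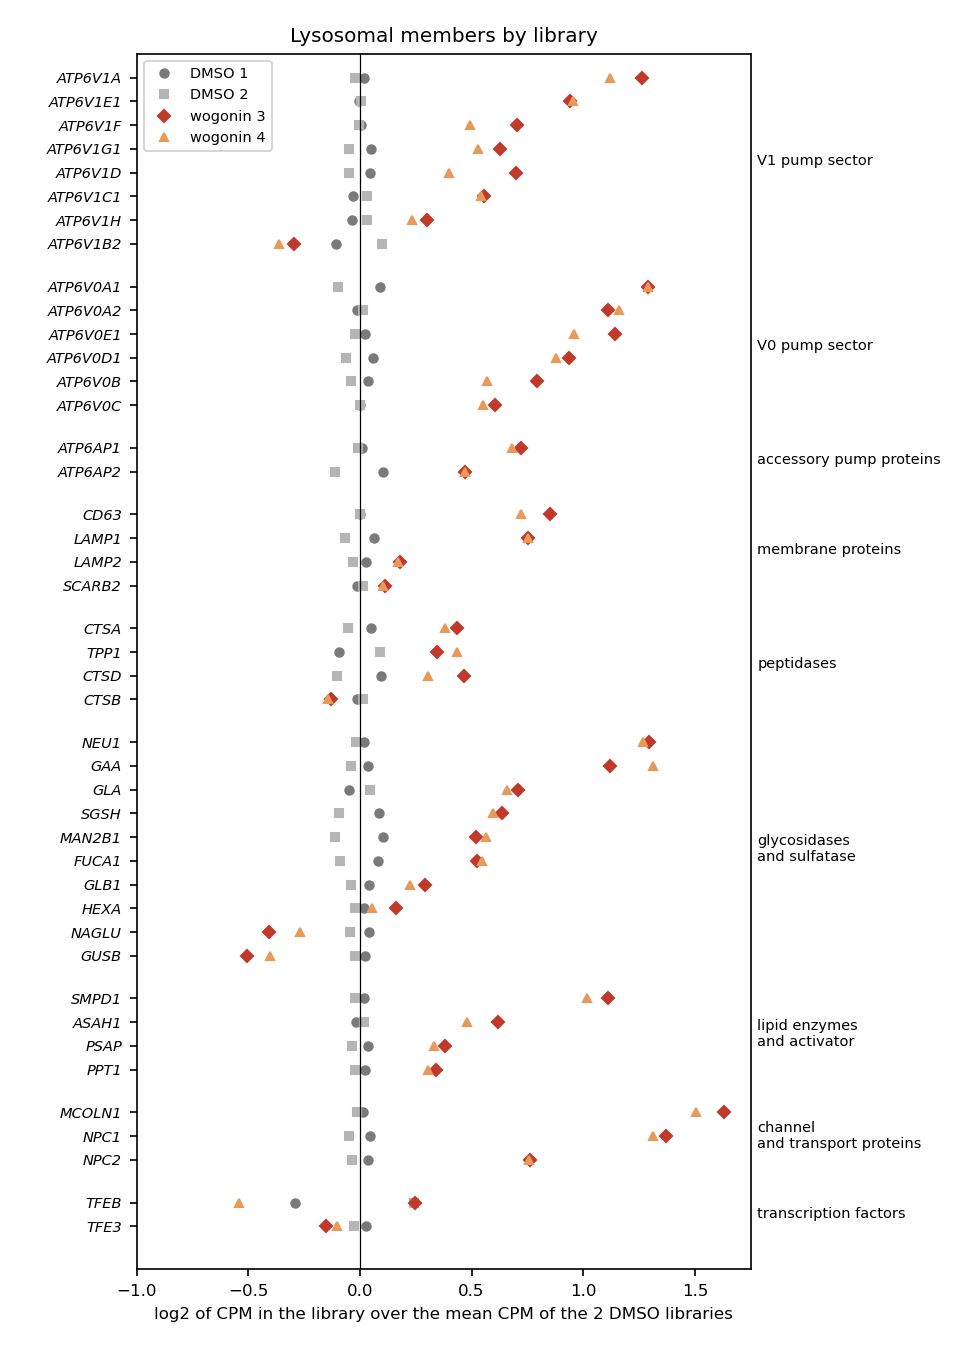
Each row is a member, grouped by role, and each symbol a library: the x axis gives the log2 ratio of its CPM to the mean of the 2 DMSO libraries. In 37 of the 44 members both wogonin libraries lie right of both DMSO libraries; MITF, with 0 reads in wogonin 4, is left out.

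The promoters of the members are shown first, since many lysosomal genes share a short palindrome there, an extended E-box. Promoters (250 bases before to 50 after the annotated start) came from RefSeq on build GRCh38.p14 and matched 32 of the 44 members, with 46 promoters. The longer form TCACGTGA stood in 6 of 46 member promoters (13.0%) and in 344 of 35116 promoters overall (0.980%). Its core CACGTG, which the longer form contains, stood in 10 of 46 (21.7%) and in 7.26% overall. Both read the same on either strand. This motif was itself described from lysosomal promoters, so its share among lysosomal genes is not independent evidence. A match in these letters is a description, not a bound site.

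The 6 members with the longer form were MCOLN1, GAA, ATP6V0D1, LAMP1, ATP6V1G1 and CTSA. The stretches below run from 100 bases before the start site through the first 10 transcribed bases, 5′ to 3′ along the gene, and capitals mark TCACGTGA or, in 1 place in CTSA, the core alone. They lie at chr19:7522524-7522633 (MCOLN1), chr17:80101481-80101590 (GAA), chr16:67481148-67481257 (ATP6V0D1, minus strand), chr13:113297139-113297248 (LAMP1), chr9:114587669-114587778 (ATP6V1G1) and chr20:45891235-45891344 (CTSA).
MCOLN1: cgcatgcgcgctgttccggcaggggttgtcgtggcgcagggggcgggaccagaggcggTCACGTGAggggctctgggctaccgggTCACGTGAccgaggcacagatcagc
GAA: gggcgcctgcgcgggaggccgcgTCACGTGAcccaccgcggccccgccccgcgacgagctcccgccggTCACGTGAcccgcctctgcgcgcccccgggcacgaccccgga
ATP6V0D1: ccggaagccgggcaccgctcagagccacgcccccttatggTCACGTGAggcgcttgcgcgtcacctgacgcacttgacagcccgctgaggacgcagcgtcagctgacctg
LAMP1: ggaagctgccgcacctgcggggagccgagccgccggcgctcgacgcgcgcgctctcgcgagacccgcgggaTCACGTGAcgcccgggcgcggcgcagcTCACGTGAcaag
ATP6V1G1: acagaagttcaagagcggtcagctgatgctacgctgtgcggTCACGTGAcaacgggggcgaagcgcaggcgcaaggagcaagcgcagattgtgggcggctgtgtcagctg
CTSA: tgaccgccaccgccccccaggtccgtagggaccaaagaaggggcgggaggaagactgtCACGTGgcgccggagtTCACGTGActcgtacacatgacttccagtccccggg

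In MCOLN1, GAA and LAMP1 the longer form occurs 2 times within this stretch. Counting the first transcribed base as 0, its first base lies at -42 and -15 in MCOLN1, at -77 and -32 in GAA, and at -29 and -2 in LAMP1. Another 4 members, NEU1, ATP6V0B, CD63 and CTSD, hold the core alone. The log2 fold changes of the 6 members with the longer form ran from 0.41 to 1.57 with a median of 0.83. Those of the 26 matched members without it ran from -4.41 to 1.34 with a median of 0.57, so the ranges overlap, and the difference was not tested.

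**Figure D2:**
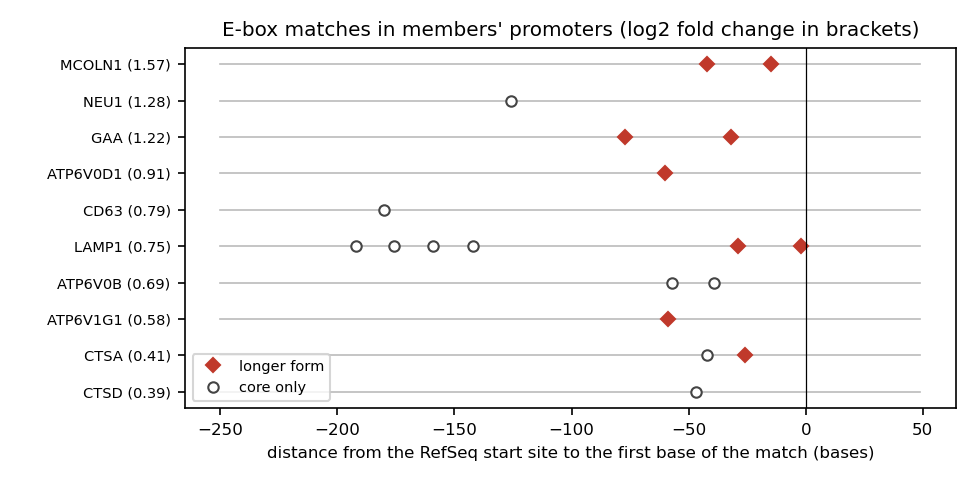
Each line is a member's RefSeq promoter, with the x axis in bases from the start site; filled diamonds mark the longer form TCACGTGA and open circles the core CACGTG alone. The longer form lies between -77 and -2 in all 6 promoters that hold it.

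In the V1 sector of the pump 7 of 8 genes rose and 1 fell, with a median log2 fold change of 0.57. ATP6V1A, the catalytic subunit (ENSG00000114573, chromosome 3, 113465866 to 113530903 on GRCh37, the files' build), stood at 91.4 and 88.8 CPM in DMSO and 216 and 196 CPM in wogonin. Its log2 fold change was 1.19 ± 0.07 (SE, edgeR adjusted p = 4.4e-10), with no overlap between groups. ATP6V1E1, a part of the outer stalks, had 77.4 and 78.1 CPM in DMSO and 149 and 151 CPM in wogonin. The change was 0.95 ± 0.07 log2 units (SE, edgeR adjusted p = 4.4e-09), the next largest of this sector.

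ATP6V1G1, which pairs with ATP6V1E1 in the stalks, went from 73.5 and 68.6 CPM to 110 and 103 CPM, and ATP6V1C1, at the joint of V1 and V0, from 81.2 and 84.9 CPM to 122 and 121 CPM. Both rose by less than 1 log2 unit (0.58 and 0.55). The shaft subunits ATP6V1D and ATP6V1F rose, with log2 fold changes of 0.56 and 0.60. For ATP6V1F 18.1% of exon reads were uniquely placed, and in these the value was 0.45. In unique gene reads, exons and introns together, its call was lost (0.38, edgeR adjusted p = 0.063). ATP6V1D overlaps MPP5 and EIF2S1 on the opposite strand, and the strand setting of the counts is not given in the sources used here. EIF2S1, which overlaps by 269 bases, had 2157 and 2462 exon reads in DMSO and 4382 and 4450 in wogonin. MPP5, which overlaps by 41449 bases, had 773 and 811 exon reads, then 764 and 841. Their part in the rise of ATP6V1D was not tested. ATP6V1H, a regulatory subunit, rose slightly (log2 fold change 0.27, edgeR adjusted p = 0.0067), but the call was lost without DMSO 1 (0.22, adjusted p = 0.080) and with 2 other scalings.

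The exception in V1 was ATP6V1B2, the nucleotide-binding partner of the catalytic subunit. It had 38.3 and 44.1 CPM in DMSO and 33.6 and 32.1 CPM in wogonin (log2 fold change -0.33 ± 0.10, SE, edgeR adjusted p = 0.0080). The groups did not overlap, but the call was lost with DESeq2 (adjusted p = 0.061) and without DMSO 2 (-0.23, edgeR adjusted p = 0.11). The kidney and epididymis isoform ATP6V1B1 is on a list of further pump genes. It had 8 and 6 exon reads in DMSO and 24 and 21 in wogonin, and passed the filter on low counts through its wogonin libraries alone.

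All 6 genes of the V0 sector rose, with a median of 0.98 log2 units. ATP6V0A1 (ENSG00000033627, chromosome 17, 40610862 to 40674629), an isoform of the large membrane subunit that forms the proton path, stood at 53.6 and 47.1 CPM in DMSO and 123 and 123 CPM in wogonin. Its change of 1.29 ± 0.08 (SE, edgeR adjusted p = 1.0e-09) was the largest among the 16 pump members. ATP6V0A2, the isoform known from the Golgi and endosomes, had 45.1 and 46.0 CPM in DMSO and 98.4 and 102 CPM in wogonin (log2 fold change 1.14). ATP6V0A1 made up 66.3% and 62.9% of the TPM (a level per transcript length) of the pair in DMSO and 67.4% and 66.7% in wogonin. Both isoforms were thus near the same ratio in all 4 libraries.

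ATP6V0E1, a small membrane subunit, went from 56.9 and 55.2 CPM to 124 and 109 CPM (log2 fold change 1.05). ATP6V0D1, which links the shaft to the rotating ring, went from 59.7 and 55.0 CPM to 110 and 105 CPM (0.91). The ring subunits ATP6V0B and ATP6V0C also rose (log2 fold changes 0.69 and 0.58). Only 9.20% of ATP6V0C exon reads were uniquely placed, and the value in these was 0.72. The accessory proteins, which help assemble the pump, rose as well: ATP6AP1 from 132 and 130 CPM to 216 and 210 CPM (0.70), and ATP6AP2 from 84.6 and 72.8 CPM to 109 and 109 CPM (0.47).

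On the per-length TPM scale, pump genes differed widely in level within 1 library. Mean TPM in DMSO was 389 for ATP6V0C, 262 for ATP6V1F and 233 for ATP6V1G1, against 22.6 for ATP6V1B2 and 14.3 for ATP6V0A2. The catalytic ATP6V1A was at 75.5 and 74.8 TPM in DMSO and 168 and 144 TPM in wogonin. Summed over the 8 V1 genes the level was 839 and 843 TPM in DMSO and 1295 and 1129 TPM in wogonin. For the 6 V0 genes it was 660 and 660 TPM, then 1084 and 960 TPM. The 44 members together took 5257 and 5188 TPM in DMSO, and 7232 and 6554 TPM in wogonin, so both sums were higher in each treated library.

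**Figure D3:**
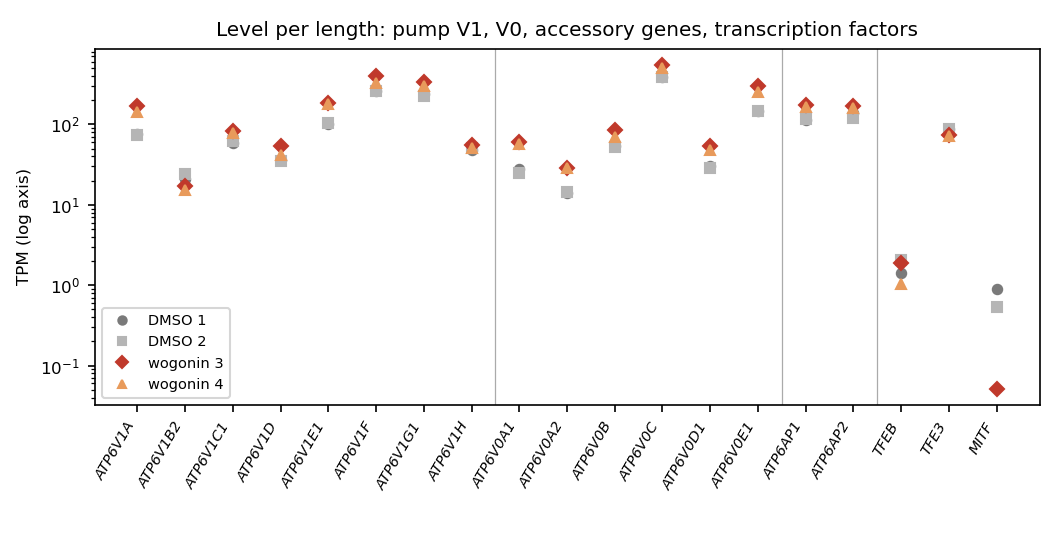
Deposited TPM (log axis) of the 16 pump genes and the 3 transcription factors, 1 symbol per library, with vertical lines between V1, V0, accessory genes and factors. TFE3 lies at 72.4 to 88.7 TPM and TFEB and MITF at 2.06 TPM or less; MITF in wogonin 4 is at 0 and is not drawn.

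The largest rises of all members were in the channel and transport proteins, where the 3 measured genes rose. MCOLN1, the calcium channel TRPML1 of the lysosomal membrane (ENSG00000090674, chromosome 19, 7587512 to 7598895), stood at 20.3 and 19.9 CPM in DMSO and 62.2 and 57.0 CPM in wogonin. The log2 fold change was 1.57 ± 0.10 (SE, edgeR adjusted p = 1.1e-09), a 2.97-fold level. NPC1, which exports cholesterol from the lysosome (ENSG00000141458, chromosome 18, 21086148 to 21166862), had 76.4 and 71.5 CPM in DMSO and 191 and 184 CPM in wogonin. Its log2 fold change was 1.34 ± 0.07 (SE, edgeR adjusted p = 1.1e-10). NPC1 overlaps C18orf8 on the opposite strand, a gene with 514 and 604 exon reads of its own in DMSO, then 705 and 724 in wogonin. NPC2, the soluble partner that hands cholesterol to NPC1, went from 57.0 and 54.2 CPM to 94.3 and 93.9 CPM, a log2 fold change of 0.76.

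Among the membrane proteins, 3 of 4 rose. LAMP1, a glycoprotein that lines the lysosome, had 144 and 131 CPM in DMSO and 232 and 232 CPM in wogonin (log2 fold change 0.75 ± 0.06, SE, edgeR adjusted p = 3.3e-08). CD63, a tetraspanin of late endosomes and lysosomes, went from 189 and 189 CPM to 341 and 312 CPM (0.79). The related LAMP2 was at 75.8 and 72.8 CPM, then 84.2 and 83.6 CPM. Its call (log2 fold change 0.18, edgeR adjusted p = 0.044) was lost in 11 of 16 alternative settings, among them DESeq2 (adjusted p = 0.17) and the fits without each library. SCARB2, the receptor that carries glucocerebrosidase to the lysosome, was at 287 and 292 CPM in DMSO and 313 and 311 CPM in wogonin and did not pass (0.11, edgeR adjusted p = 0.091).

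Of the 18 genes for enzymes and the activator protein PSAP, 14 rose and 2 fell, while 2 did not pass; their median was 0.40 log2 units. In the peptidases, the serine carboxypeptidase CTSA had 135 and 126 CPM in DMSO and 176 and 170 CPM in wogonin (0.41). TPP1, which removes tripeptides, had 77.4 and 87.9 CPM and then 105 and 112 CPM (0.39). The aspartic protease CTSD had 159 and 139 CPM and then 205 and 184 CPM (0.39), with 24.5% of its exon reads uniquely placed. The cysteine protease CTSB stood apart, at 116 and 118 CPM in DMSO and 107 and 106 CPM in wogonin. It did not pass (log2 fold change -0.14, edgeR adjusted p = 0.080), though it was called lower with library totals alone (-0.23, adjusted p = 0.0066), with upper-quartile factors and with an exon length trend removed.

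The glycosidases and the sulfatase SGSH ranged most widely of the enzyme groups, from -0.45 to 1.28 log2 units: 7 of 10 rose, 2 fell and 1 did not pass. NEU1, the lysosomal sialidase (ENSG00000204386, chromosome 6, 31825436 to 31830683), stood at 47.7 and 46.5 CPM in DMSO and 115 and 113 CPM in wogonin. Its log2 fold change was 1.28 ± 0.07 (SE, edgeR adjusted p = 5.5e-10). GAA, which degrades glycogen (ENSG00000171298, chromosome 17, 78075355 to 78093678), went from 56.4 and 53.4 CPM to 119 and 136 CPM (1.22 ± 0.08, SE, edgeR adjusted p = 2.4e-09). These were the only 2 glycosidases that rose by 1 log2 unit or more.

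GLA, an alpha-galactosidase, went from 77.9 and 83.0 CPM to 131 and 127 CPM (0.68), and the mannosidase MAN2B1 from 72.5 and 62.6 CPM to 96.8 and 99.9 CPM (0.54). GLA overlaps the readthrough gene RPL36A-HNRNPH2 on the opposite strand, and 67.9% of its reads were uniquely placed. SGSH, which acts on heparan sulfate, rose by 0.62 log2 units and the fucosidase FUCA1 by 0.54. The beta-galactosidase GLB1 rose by 0.26 (edgeR adjusted p = 0.0042), a call lost in 4 of 16 settings, with its lowest value of 0.13 in total gene reads. HEXA, a chain of beta-hexosaminidase, was at 80.0 and 77.8 CPM and then 88.4 and 82.0 CPM and did not pass (0.11, edgeR adjusted p = 0.20).

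The 2 glycosidases that fell were GUSB and NAGLU, both of which act on glycosaminoglycans. GUSB, the beta-glucuronidase often used as a reference gene, had 61.3 and 59.5 CPM in DMSO and 42.6 and 45.6 CPM in wogonin. The log2 fold change was -0.45 ± 0.08 (SE, edgeR adjusted p = 1.6e-04), and the call held in all 16 alternatives. NAGLU, which like SGSH degrades heparan sulfate, had 39.2 and 37.0 CPM and then 28.7 and 31.6 CPM (-0.33, edgeR adjusted p = 0.0067). That call was lost with DESeq2 (adjusted p = 0.060), without DMSO 1 (-0.31, edgeR adjusted p = 0.057) and without wogonin 3 (-0.26, edgeR adjusted p = 0.066). Only 16.0% of NAGLU reads were uniquely placed, and in these the log2 fold change was -0.53.

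All 4 lipid genes rose. SMPD1, the acid sphingomyelinase, stood at 24.0 and 23.3 CPM in DMSO and 51.1 and 47.9 CPM in wogonin (log2 fold change 1.07 ± 0.09, SE, edgeR adjusted p = 7.0e-08). The acid ceramidase ASAH1, the next enzyme of the same route, went from 55.8 and 57.3 CPM to 86.9 and 78.8 CPM (0.55). PSAP, the precursor of the saposins that present lipids to these enzymes, was the most abundant member. It had 857 and 816 CPM in DMSO and 1088 and 1052 CPM in wogonin (log2 fold change 0.36). The thioesterase PPT1, which strips palmitate from proteins, went from 249 and 242 CPM to 311 and 303 CPM (0.32).

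**Figure D4:**
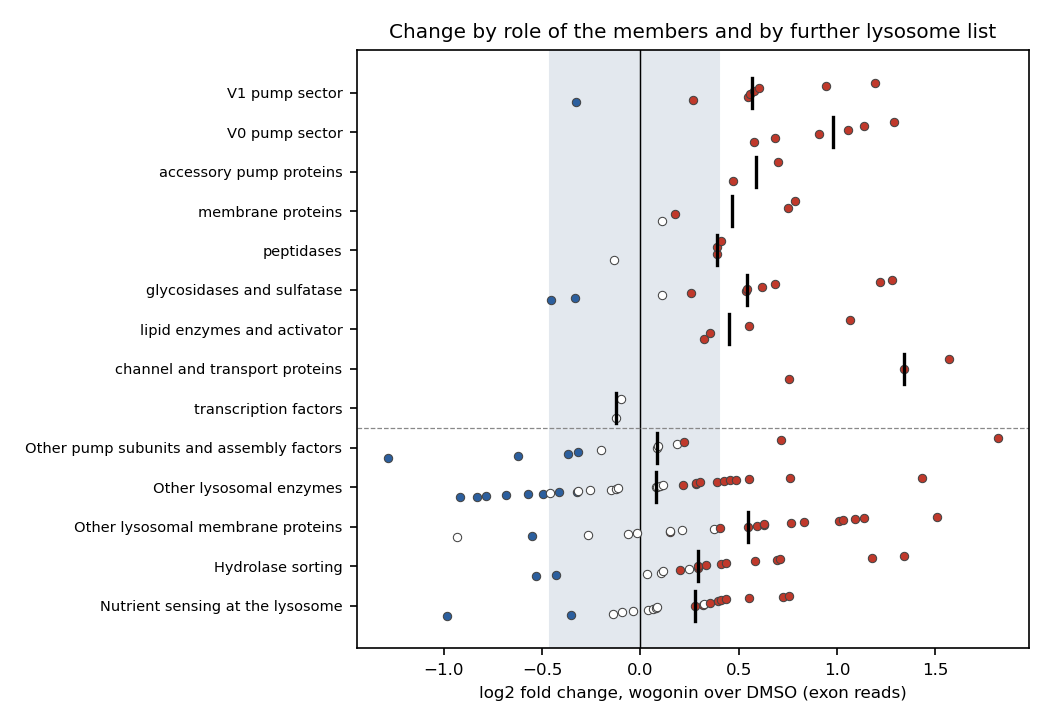
Points are genes, placed by log2 fold change of exon reads (x axis) within each role of the members (above the dashed line) and each further lysosome list (below it); red is called higher, blue lower and white not passed. Thick bars are medians, from 1.34 in the channel and transport proteins to -0.13 in the transcription factors. The shaded band holds the middle 50% of all 13449 genes. MITF, at -4.41, is counted in its median but not drawn.

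None of the 3 transcription factors rose. TFE3 (ENSG00000068323, chromosome X, 48886242 to 48901012) was at 89.6 and 86.1 CPM in DMSO and 79.0 and 82.0 CPM in wogonin. It did not pass (log2 fold change -0.13 ± 0.07, SE, edgeR adjusted p = 0.14), but was called lower with library totals alone and with upper-quartile factors (-0.22 in each, adjusted p = 0.014). TFEB had 22 and 33 exon reads in DMSO and 29 and 17 in wogonin, and its groups overlapped (-0.10 ± 0.36, SE, edgeR adjusted p = 0.83). With an SE of that size, a change in TFEB as large as the median of the members was not detectable at this depth. TFE3 was the most abundant of the 3 per length, with a mean of 87.8 TPM in DMSO against 1.73 TPM for TFEB.

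MITF (ENSG00000187098, chromosome 3, 69788586 to 70017488), best known from melanocytes, was near the floor. It had 18 and 11 exon reads in DMSO and 1 and 0 in wogonin. Over both groups the DMSO level was 27.7 times that in wogonin, with a 95% exact interval of 4.60 to 1132 that covers counting error only. It was called lower (edgeR adjusted p = 2.8e-04), but it passed the filter through its DMSO libraries alone, so its call is no support for the count of genes that fell.

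Intron reads, a second readout of the same libraries, were sparse. Of the 44 members 28 had enough for a test, and 3 were higher and 1 was lower by the edgeR quasi-likelihood test on intron reads. Among 10495 genes tested there, 11.3% were higher and 8.82% lower. The members' median log2 fold change in intron reads was 0.43, with a median SE of 0.35, and the median of all genes was 0.05. For 22 of the 28 the value was above 0, but the share of all genes above 0 was not counted. The count of 22 therefore does not set the members apart from other genes. NPC1 had 45 and 48 intron reads in DMSO and 196 and 122 in wogonin (log2 fold change 1.45 ± 0.27, SE, edgeR adjusted p = 0.0017), beside an exon value of 1.34. That call was lost without DMSO 1 (adjusted p = 0.076) and without DMSO 2 (adjusted p = 0.063), and in each of these settings no member was called in intron reads. Reads from C18orf8 on the opposite strand cannot be told apart there.

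The exon and the intron change differed in 4 of 28 members (edgeR quasi-likelihood test of the difference over 9475 genes). In 2 of these the exon change was the higher and in 2 the lower. Of all genes tested, 4.15% had the higher and 6.42% the lower exon change, so counts this small do not set the members apart. MCOLN1 showed the widest gap. Its intron reads were 26 and 21 in DMSO and 20 and 22 in wogonin while its exon reads rose, a difference of 1.97 ± 0.40 log2 units (SE, edgeR adjusted p = 0.0068). CTSB went the other way, with 23 and 25 intron reads in DMSO and 98 and 73 in wogonin beside an exon level that did not pass. The difference was -1.72 ± 0.31 (SE, edgeR adjusted p = 0.0034).

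GLB1 had 103 and 96 intron reads in DMSO and 63 and 63 in wogonin, and a difference of 1.15 (edgeR adjusted p = 0.025). PPT1 had 4 and 5, then 26 and 17, and a difference of -1.67. It passed the filter on low intron counts through wogonin alone, so neither its intron call nor its difference is support for the counts above. GLB1 contains TMPPE on its own strand, a gene with 42 and 48 exon reads in DMSO, then 33 and 26 in wogonin. The part of TMPPE in the intron reads of GLB1 was not tested. All 4 calls of a difference depend on single libraries. Without DMSO 1 none of the 4 passed (adjusted p of 0.078 for CTSB, 0.095 for MCOLN1, 0.30 for GLB1 and 0.41 for PPT1), and without DMSO 2 the difference of MCOLN1 alone passed. Without wogonin 3, the library with the high intron share, the count was 10 members, and without wogonin 4 it was also 10.

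**Figure D5:**
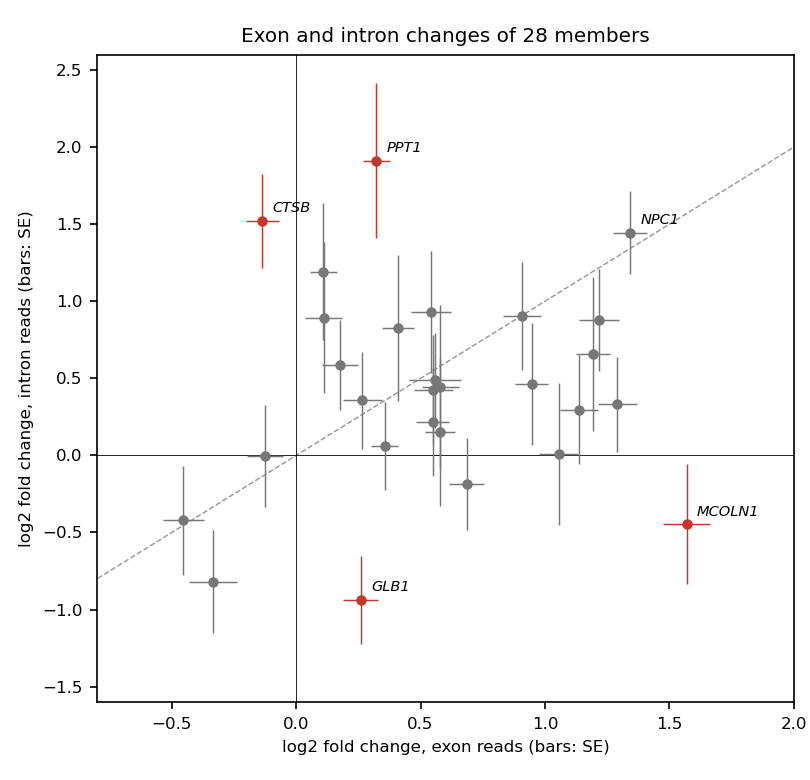
Log2 fold change of exon reads (x axis) against that of intron reads (y axis) for the 28 members with enough intron reads, with SE bars and a dashed line of equal change. The 4 red points, CTSB, PPT1, GLB1 and MCOLN1, passed the test of the difference.

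Other genes of the lysosome were counted on 5 further lists. Of 97 tested genes on these, 47 rose and 17 fell, while 33 did not pass; the median was 0.21 log2 units. These are 48.5% higher and 17.5% lower, against 32.3% and 31.5% of all genes tested. The lists too were chosen with earlier results of these data known. Other lysosomal membrane proteins had the highest median of the 5 lists, 0.55, with 13 of 21 higher and 1 lower (0 to 3 lower in the alternatives). They include the lipid transporter ABCA2 (1.51), the sialic acid exporter SLC17A5 (1.03) and SIDT2 (0.83). In hydrolase sorting 11 of 17 rose and 2 fell. The mannose 6-phosphate receptor M6PR rose by 1.34 log2 units, GNPTG, a subunit of the enzyme that makes its ligand, by 1.18, and the adaptor AP1B1 by 0.70. Lower were SORT1 (-0.53) and GNPTAB (-0.43), the latter of the same enzyme as GNPTG, so the genes of that enzyme went both ways.

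The 29 tested genes for other lysosomal enzymes went both ways, with 11 higher (37.9%) and 8 lower (27.6%), shares near those of all genes, and a median of 0.08. With library totals alone or upper-quartile factors the balance turned to 8 higher and 13 lower, and 7 were higher with DESeq2, in total gene reads, without DMSO 1 and without DMSO 2. The esterase SIAE rose by 0.76 log2 units, while the nuclease DNASE2 fell by 0.78 and the acid phosphatase ACP2 by 0.83 on the log2 scale. Other pump subunits and assembly factors also split, with 3 of 11 higher (27.3%) and 4 lower (36.4%). ATP6V1B1 is among those higher, but it passed the filter on low counts through wogonin alone. Its call is thus no support for this count or for the count over all the further lists. ATP6V0E2, a second isoform of the small membrane subunit, rose by 0.71, and ROGDI, tied to pump assembly, fell by 1.29 and TMEM199 by 0.62. Only 9.07% of TMEM199 exon reads were uniquely placed, and in these it was not called (-0.54, edgeR adjusted p = 0.16). Of 19 tested genes of nutrient sensing at the lysosome 9 rose (47.4%) and 2 fell (10.5%), against 32.3% and 31.5% of all genes tested. The rises include LAMTOR3 (0.75) of the mTORC1 anchor, the kinase gene MTOR (0.44) and the mTORC1 brake TSC2 (0.40). The falls were RRAGB (-0.98) and MLST8 (-0.36).

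CLN3, a lysosomal membrane protein, is listed in 2 overlapping rows on chromosome 16 (ENSG00000188603 and ENSG00000261832), which the rule by name did not match. Together they held 492 and 529 exon reads in DMSO and 354 and 349 in wogonin, or 41.7 and 43.2 CPM against 33.0 and 32.2 CPM. At most 14 reads of either row were uniquely placed in any library, so the rows cannot be told apart, and their sum was not tested.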

How the data were processed

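RNA from 4 libraries of A2780 cells was measured by a SMARTER mRNA kit, per the labels' protocols. The authors deposited, per library, read counts for the exons and the introns of every gene (total and uniquely placed) and TPM computed from exon counts and exon length, per the file headers. The submitters' processing notes name builds GRCh37 and hg19. The aligner, counter and strand setting were not given in the sources used here.

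Total exon counts went into a robust quasi-likelihood test (edgeR 4.0.16, R 4.3.3) after filterByExpr and TMM scaling, with treatment as the single term, and p was adjusted by Benjamini-Hochberg over all genes tested at 0.05. Intron counts were tested likewise, and the difference of exon and intron change with library as a term. SE is the log2 fold change over the root of F. The functions were tested on simulated counts with a fixed spread, which was below that of the intron reads (common coefficient of variation 19.0%). True changes of 0.5 log2 units were called in 61.6% of cases for exon reads, 6.32% for intron reads and 4.17% for the difference. The last 2 values may be too high for the real intron reads. Members, roles and lists were chosen with earlier results of these data known.

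Values in every library are given for up to 4 members per role with the smallest adjusted p and for the factors, and up to 3 genes per further list are named. ATP6V1B2, GUSB, NAGLU, HEXA, ATP6V1B1, RRAGB, MLST8, GNPTAB, SORT1 and the genes with intron values were added after their values were seen. Alternatives were DESeq2 1.42.0, limma-voom (limma 3.58.1), a non-robust fit, 3 scalings, 2 filters, 3 other columns of reads, removal of a trend over exon length, and each library left out. Intervals and floors cover counting error only.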

Additional observations from a re-analysis of the deposited data

How the results depend on the processing

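No paired analysis was possible because the groups share no replicate number. Across 16 alternatives of the exon test, 31 of the 35 rises kept their call in every setting. Of the falls GUSB did so, and MITF is left out of this, having passed the filter through DMSO alone. The count of members that fell was 2 with DESeq2, 6 with library totals alone or upper-quartile factors and 5 with the exon length trend removed. The median log2 fold change of the members, 0.55 in the report, was 0.46 with library totals alone, 0.46 with upper-quartile factors, 0.49 in total gene reads and 0.48 in unique gene reads. The first 2 settings moved the median of all genes to -0.09. With each library left out in turn, the members higher ranged from 33 to 34, the members lower from 2 to 4 and the median from 0.53 to 0.61, while TFEB ranged from -0.53 to 0.24. In intron reads the members higher ranged from 0 to 8, the members lower from 0 to 3, and those whose exon and intron changes differ from 0 to 10. The cause was not tested. With 1 library in a group, that library is assumed to vary like the other group. Depth left 16 members with too few intron reads for a test.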
